A study of Mus musculus with 16 samples.

Results

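Splenic regulatory T cells (Tregs) of mice that carry a transgenic T cell receptor (TCR) from a muscle Treg were compared with splenic Tregs of control mice without the transgene. The comparison rests on 4 RNA-seq libraries of the 16 in the series, 2 from each genotype. All genes were considered: 13188 of the 52997 listed passed the low-count filter and were tested, and TCR and immunoglobulin genes are described apart from the rest. The transgenic mice (Tg) were mTreg24 TCR-tg+ Foxp3 GFP+ on a B6 background, and the controls (WT) were mTreg24 TCR-tg- Foxp3 GFP+ on the same background. Mice of both genotypes carried the Foxp3-GFP reporter and were 6 to 8 weeks old, and the cells came from the spleen. The Tg mice had been injured in muscle with the toxin cardiotoxin 3 days earlier. The WT spleen libraries carry no injury label of their own, and the series' design text places all sorted Tregs of injured mice at 3 days. The sort differed with the genotype: Vβ8+ Tregs were taken from Tg mice and all Tregs from WT mice, so the transgene and the gate cannot be told apart. Tg spleen Tregs without injury (2 libraries) and muscle Tregs of Tg and WT mice 3 days after injury (2 libraries each) served as further groups. The transgene is 1 receptor. Neither the promoter that drives it nor whether replicates were separate animals is stated, so p-values measure only the spread between these libraries, which may be technical.

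Tregs are CD4 T cells that express the transcription factor Foxp3 and restrain other immune cells. In lymphoid organs most have a resting form that circulates through lymph nodes with the help of homing receptors such as CCR7. A smaller effector form carries tissue-homing and cytokine receptors, among them ST2, the receptor for IL-33, and is the form most like the Tregs that accumulate in injured muscle. The receptor chosen in the thymus decides which antigen a Treg can see, and a TCR transgene fixes that choice for most of the cells.

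The V gene counts differed between the genotypes. Only Vβ8+ cells were sorted from Tg mice, so a high share of Vβ8 segments and low levels of other Trbv segments also follow from the gate. In the share of Vβ8 against other Trbv segments the gate and the transgene cannot be told apart. The gate does not select among the segments of the Vβ8 family, and their split is given below. The Vβ8 antibody family corresponds to Trbv13-1, Trbv13-2 and Trbv13-3, which are neighbouring V segments on chromosome 6. The last 150 bases of each coding transcript are shown because reads of 25 bases must separate these relatives. Sequences are from GENCODE M21 on GRCm38. Capitals in Trbv13-2 (chr6:41121396-41121832, plus strand, gene span) mark bases where either relative differs, and capitals in the relatives mark bases that differ from Trbv13-2.
Trbv13-2: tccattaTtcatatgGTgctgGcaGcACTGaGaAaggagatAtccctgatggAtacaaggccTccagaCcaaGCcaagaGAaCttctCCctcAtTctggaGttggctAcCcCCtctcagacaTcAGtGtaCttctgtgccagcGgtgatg
Trbv13-3: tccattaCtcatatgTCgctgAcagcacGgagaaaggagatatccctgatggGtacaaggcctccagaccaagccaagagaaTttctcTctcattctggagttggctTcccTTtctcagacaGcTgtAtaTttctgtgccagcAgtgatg
Trbv13-1: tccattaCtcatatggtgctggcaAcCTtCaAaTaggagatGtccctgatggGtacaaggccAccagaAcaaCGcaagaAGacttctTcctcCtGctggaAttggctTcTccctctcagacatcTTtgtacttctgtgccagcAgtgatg
Over this stretch Trbv13-3 differed from Trbv13-2 at 16 bases (89.3% identity) and Trbv13-1 at 24 bases (84.0% identity). Of the 25-base stretches of the Trbv13-2 transcript, 81.6% occurred in no other annotated transcript and 17.1% were shared with Trbv13-3. Trbv13-2 is therefore mostly told apart by reads of this length.

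Levels are read counts scaled to library size (CPM) after TMM scaling, a correction for differences in library composition. Trbv13-2 stood at 3581 and 3741 CPM in the injured Tg spleen libraries and at 51.0 and 72.0 CPM in the WT spleen libraries. It was higher in Tg by a log2 fold change of 5.88 (SE 0.22, adjusted p = 4.98e-09, edgeR quasi-likelihood test with Benjamini-Hochberg adjustment). Within the Trbv counts it took 96.6% and 97.6% in Tg and 8.50% and 11.8% in WT. The other Vβ8 segments did not follow: Trbv13-3 took 1.36% and 1.19% in Tg against 2.65% and 5.96% in WT, and Trbv13-1 took 0.134% and 0.222% against 3.53% and 2.53%. The effective number of Trbv segments, the exponential of the Shannon entropy of their shares, was 1.24 and 1.17 in Tg and 15.7 and 16.7 in WT.

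On the alpha side Trav9-4 (chromosome 14, 53676141 to 53676630) stood at 368 and 397 CPM in Tg and 11.1 and 9.08 CPM in WT. Its log2 fold change was 5.28 (SE 0.18, adjusted p = 3.05e-10). It took 61.6% and 71.4% of Trav counts in Tg and 5.20% and 5.13% in WT. The alpha chain counts were spread over more segments than the beta chain counts, with 7.31 and 4.73 effective Trav segments in Tg against 41.4 and 45.8 in WT. In Tg, Trav17 followed with 4.90% and 4.03%. Only 20.2% of the 25-base stretches of Trav9-4 occur in no other annotated transcript, and 58.0% are shared with Trav9n-4, so the split of reads within this family is uncertain.

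Among the J segments Trbj2-7 and Trbj1-1 passed the test. Their whole sequences are given because neither shares a 25-base stretch with another annotated transcript, so reads inside them are told apart.
Trbj2-7: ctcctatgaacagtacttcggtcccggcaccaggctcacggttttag
Trbj1-1: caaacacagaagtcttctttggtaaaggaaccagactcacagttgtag
Trbj2-7 (chr6:41543810-41543856, plus strand) stood at 51.4 and 48.0 CPM in Tg and 7.69 and 10.8 CPM in WT (log2 2.39, SE 0.30, adjusted p = 0.000987). It took 28.4% and 23.5% of Trbj counts in Tg, so most J reads still came from other segments. Trbj1-1 (chr6:41533864-41533911, plus strand) stood at 20.2 and 26.0 CPM in Tg and 2.88 and 4.22 CPM in WT. Trbc2, the constant region downstream of the Trbj2 cluster, rose from 917 and 839 CPM in WT to 5779.5 and 5843 CPM in Tg (log2 2.73, SE 0.14, adjusted p = 4.56e-08). Trbc1, downstream of the Trbj1 cluster, did not pass the test, at 514 and 532 CPM in Tg and 628 and 661 CPM in WT. The split between the constant regions is uncertain, since 49.9% of the 25-base stretches of Trbc2 also occur in Trbc1. Trac, the alpha constant region, was at 1139.9 and 1226 CPM in Tg and 631 and 609 CPM in WT (log2 0.93, adjusted p = 0.00521).

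In all, 18 of 139 tested TCR and immunoglobulin genes (12.9%) passed an adjusted p under 0.05, 8 higher (5.76%) and 10 lower (7.19%) in Tg, and none of the 18 is an immunoglobulin gene. The 10 lower genes were all Trbv segments outside the Vβ8 family, which the Vβ8+ gate on Tg cells disfavours. Trbv19 stood at 3.85 and 3.36 CPM in Tg and 46.6 and 47.3 CPM in WT (log2 -3.69, adjusted p = 0.000816). Trbv15, which was at 36.5 and 38.4 CPM in WT, and Trbv17, Trbv5 and Trbv4 had no count in either Tg library, and with a floor of 3 counts per library they were at least 55.4-fold, 20.1-fold, 15.9-fold and 12.8-fold lower. Trbv3, which was abundant in WT at 68.8 and 71.3 CPM, was at 7.93 and 0 CPM in Tg and did not pass the test (adjusted p = 0.160). Delta chain segments were also counted: Trdv4 had 17.7 and 24.7 CPM in Tg and 0 and 0.211 CPM in WT, and Trdc 47.8 and 110.1 CPM in Tg and 3.85 and 4.01 CPM in WT. Both lie within or beside the Tcra locus on chromosome 14. Of the gamma constant regions, Tcrg-C1 was at 5.89 and 6.06 CPM in Tg and 0 and 3.59 CPM in WT. Tcrg-C2 was at 3.17 and 7.63 against 1.44 and 4.85 CPM, and Tcrg-C4 at 8.38 and 9.42 against 1.44 and 4.43 CPM. The call of Trdc was lost with counts thinned to the smallest library, without either WT library and without Tg replicate 2. Those of Trac and Trbj1-1 were lost without WT replicate 2 or Tg replicate 2, and that of Trdv4 without WT replicate 2.

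**Figure D1:**
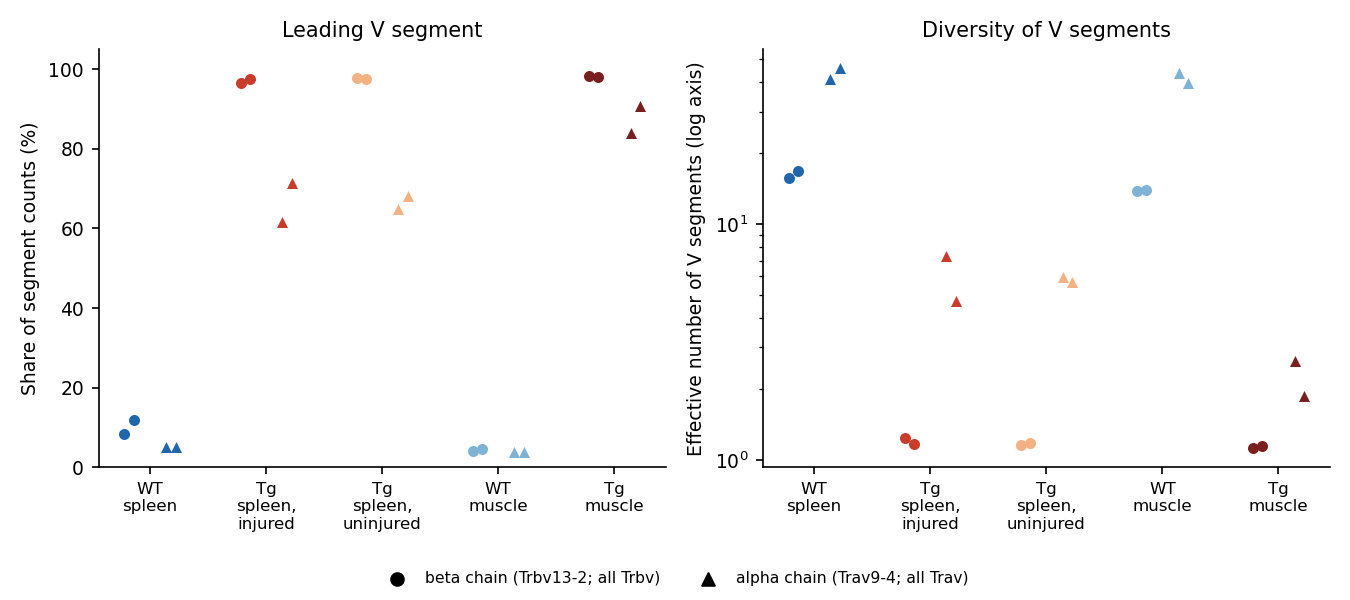
Left, share of Trbv13-2 among Trbv counts (circles) and of Trav9-4 among Trav counts (triangles) in each of the 10 Treg libraries, in percent. Right, effective number of Trbv (circles) and Trav (triangles) segments on a log axis. Trbv13-2 holds 96.6% and 97.6% in injured Tg spleen, and Trav9-4 holds 61.6% and 71.4% there against 84.0% and 90.7% in Tg muscle.

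The CD3 chains, which carry the receptor to the surface, did not pass the test. Cd3e stood at 909 and 842 CPM in Tg and 868 and 840.5 CPM in WT, and none of the 23 tested genes of the CD3 complex and proximal TCR signalling passed the test. Foxp3 was at 1229 and 1166 CPM in Tg and 1352 and 1176 CPM in WT (log2 -0.08, adjusted p = 0.928). Cd4 was at 636 and 711 CPM against 616 and 652 CPM, and Ctla4, an inhibitory receptor of Tregs, at 469.5 and 450.2 against 436 and 423 CPM. Foxp3, Cd4 and Ctla4 were thus present in all 4 libraries. Of 17 tested Treg identity genes 0 were called higher and 2 lower (Il2ra and Izumo1r, described below). The values of 7 did not overlap in the lower direction and of 4 in the higher, where 21.3% and 21.8% of all genes do so. Satb1, also on that list, was at 57.3 and 104 against 219 and 189 CPM and did not pass (adjusted p = 0.156). Ikzf2, which encodes Helios, was at 794 and 666 CPM in Tg and 511 and 587 CPM in WT and did not pass (adjusted p = 0.354).

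Outside the receptor genes, 154 of 13049 tested genes (1.18%) passed the threshold, 109 higher (0.835%) and 45 lower (0.345%) in injured Tg than in WT spleen. Of these, 78 of the higher and 32 of the lower had a log2 fold change past 1. With receptor genes included the call rate was 0.887% for higher and 0.417% for lower, and counts of list members below are read against those shares. All lists were chosen with earlier results of these data known, so counts of their members describe and do not test. The median log2 fold change was 1.35 among the higher genes, -1.20 among the lower genes and 0.00 over all genes tested. All 172 called genes had library values that did not overlap between the genotypes. The same held for 21.8% of all tested genes in the higher and 21.3% in the lower direction. Without overlap the sign of a change is nearly fixed when 1 library is left out, so a kept sign adds little. Total counts were 4174703 and 4230359 in Tg and 1986700 and 4502813 in WT. The WT libraries stood far apart on the second principal component of the 6 spleen libraries (21.1% of the variance), and the first (34.9%) separated Tg from WT. Leaving out 1 library gave between 57 calls (without Tg replicate 2) and 160 calls (without WT replicate 1), with 59 without WT replicate 2 and 67 without Tg replicate 1. All 172 genes kept their sign in these 4 fits, and 35 of them kept their call, of which 26 are not receptor genes.

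**Figure D2:**
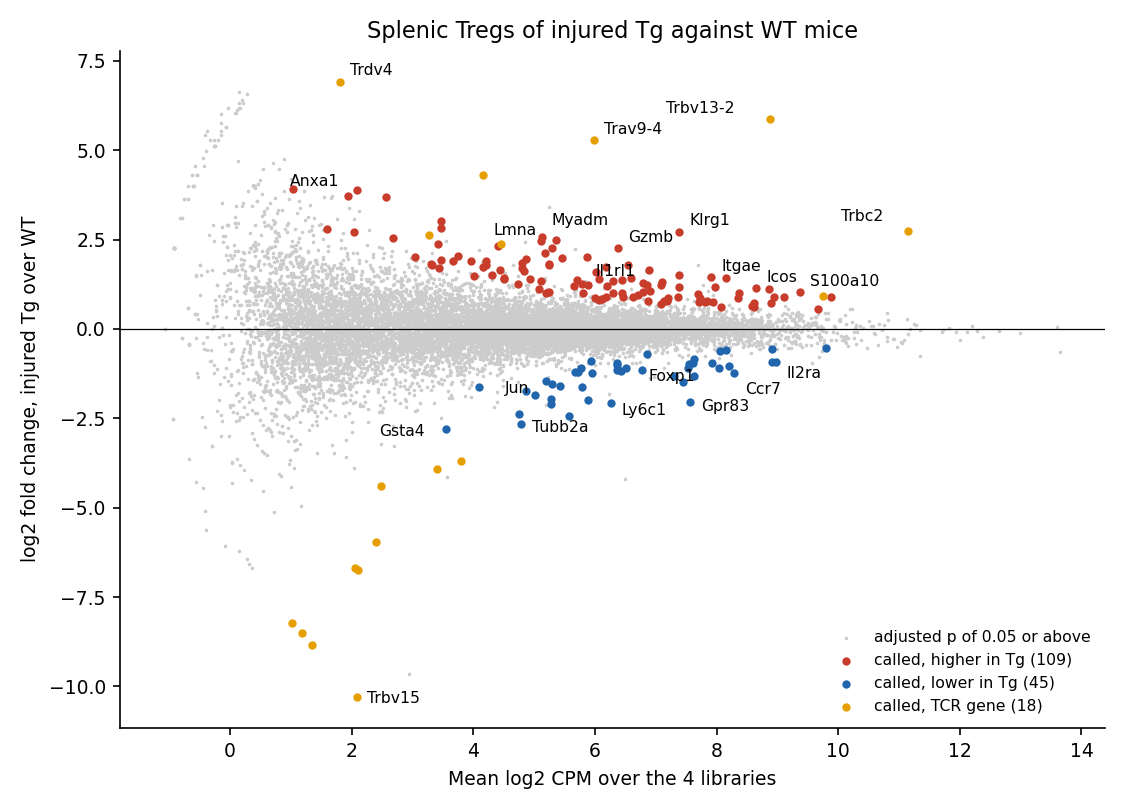
Each point is 1 of the 13188 tested genes: mean log2 CPM over the 4 libraries against the log2 fold change of injured Tg over WT. Coloured points passed an adjusted p of 0.05 (109 higher, 45 lower, 18 TCR genes); Trbv15 has the lowest value, and both Tg libraries had no count of it, so its fitted fold depends on the prior count.

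Part of the genes known from effector Tregs were higher in the Tg spleen. Of 31 tested genes of an effector Treg list, 10 were called higher and none lower, 27 had a positive log2 fold change, and the median was 0.86. Klrg1, an inhibitory receptor that marks terminally differentiated Tregs, was at 429 and 445 CPM in Tg and 48.1 and 81.9 CPM in WT. The Tg libraries agreed closely and both exceeded the WT libraries, with a log2 fold change of 2.72 (SE 0.41, adjusted p = 0.0301). Gzmb, which encodes the cytotoxic protease granzyme B, was at 163 and 199 CPM in Tg and 51.9 and 27.0 CPM in WT (log2 2.25, SE 0.31, adjusted p = 0.00935). Icos, a costimulatory receptor, was at 619.6 and 582 CPM in Tg and 325 and 219 CPM in WT (log2 1.15, SE 0.17, adjusted p = 0.0024). Cd44, an adhesion receptor of antigen-experienced T cells, was at 342 and 418 against 182 and 154 CPM (log2 1.18, adjusted p = 0.00124). Havcr2, which encodes TIM-3, a further inhibitory receptor, was at 30.4 and 16.1 against 6.25 and 3.38 CPM (log2 2.39, adjusted p = 0.00367).

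Not every effector gene passed. Ccr2, a chemokine receptor for inflamed tissue, was at 302 and 493 CPM in Tg and 152 and 80.6 CPM in WT (adjusted p = 0.0883), and Tigit, an inhibitory receptor, at 397 and 295 against 230 and 135 CPM (adjusted p = 0.0631). Il10, an inhibitory cytokine, was at 2.95 and 1.12 CPM in Tg and 11.5 and 4.22 CPM in WT, with a log2 fold change of -1.77 opposite to most of the list (adjusted p = 0.173). Lag3 was at 28.8 and 18.6 against 77.4 and 44.5 CPM (adjusted p = 0.355), and Ccr8 at 102 and 29.4 against 26.9 and 30.2 CPM. The count of higher members, whichever they were, was 12 without WT replicate 1, 5 (with 1 lower) without WT replicate 2 and 6 without either Tg library. The median of the list was 1.12 without WT replicate 1 and 0.56 without WT replicate 2. The calls of Klrg1 and Itgae were lost when any of the 4 libraries was left out, that of Gzmb without either Tg library, and that of Havcr2 without WT replicate 2. The calls of Icos, Cd44, Rora, Il1rl1, Il18r1, Il18rap and Il9r held in all 4 of these fits.

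Receptors for the alarm cytokines IL-33 and IL-18 rose together, and 3 of 14 tested receptor genes of the IL-33, IL-18 and IL-1 group passed, all higher. Il1rl1, the ST2 chain that binds IL-33, was at 101 and 141 CPM in Tg and 21.2 and 36.7 CPM in WT (log2 2.01, SE 0.27, adjusted p = 0.0024). Il18r1, which binds IL-18, was at 75.7 and 65.7 against 19.7 and 20.3 CPM (log2 1.82, SE 0.24, adjusted p = 0.00125). Its signalling partner Il18rap was at 79.8 and 90.8 against 23.6 and 8.02 CPM (log2 2.57, SE 0.34, adjusted p = 0.0024). These 3 genes are neighbours on chromosome 1 in the order Il1rl1 (40429570 to 40465415), Il18r1 (40465552 to 40500854) and Il18rap (40515362 to 40551705), with no tested gene between them. Of the other IL-1 receptor genes nearby, Il1r2, a decoy receptor for IL-1, was at 51.9 and 21.8 against 12.98 and 4.85 CPM (adjusted p = 0.354), and Il1r1 was near the floor. Il1rl2 was low in level, at 2.04 and 1.79 against 2.88 and 7.18 CPM, and did not pass (log2 -1.42, adjusted p = 0.727). The median over the 14 genes was 0.03, close to that of all genes. Of 22 tested other cytokine receptors 2 were higher: Il9r, the IL-9 receptor, at 70.2 and 84.1 against 12.98 and 21.3 CPM (log2 2.12, adjusted p = 0.00108), and Il10ra (log2 0.78, adjusted p = 0.0352). Tnfrsf1b, the TNF receptor on Tregs, was at 870.0 and 639.9 against 447 and 369 CPM (log2 0.89, adjusted p = 0.00878). The call of Il10ra was lost without WT replicate 2 or either Tg library, and that of Tnfrsf1b without WT replicate 2 or Tg replicate 1.

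Neighbouring called genes were looked for after the cluster had been seen, and among non-receptor genes 13 pairs of nearest called genes within 100000 bases were found, 12 of them changed in the same direction. In 4 of the pairs other tested genes lay between. Gpr83, a G protein-coupled receptor of Tregs, and Izumo1r, the folate receptor 4 gene of Tregs, lie 15024 bases apart on chromosome 9 and were both lower. S100a10 and S100a11 lie 28792 bases apart on chromosome 3 and were both higher. No background share was computed for such pairs, so they describe position only.

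A list for lamin A, annexins, S100 proteins and regulators of the actin skeleton also holds Myadm, Lgals1 and Lgals3. It was chosen with earlier results of these data known. Of its 24 tested genes 14 were higher. None was lower, 23 were positive and the median log2 fold change was 0.94. Myadm, a membrane protein first described as a myeloid differentiation marker, had the lowest adjusted p of all genes that are not receptor genes (1.25e-05). It stood at 92.5 and 100.5 CPM in Tg and 15.4 and 18.4 CPM in WT, a log2 fold change of 2.49 (SE 0.20). Lgals3, which encodes the sugar-binding galectin 3, was at 99.9 and 59.7 against 17.3 and 12.7 CPM (log2 2.45, adjusted p = 0.0011). Ahnak, a very large scaffold protein that binds the S100a10 and annexin A2 complex, was at 451 and 479 against 221 and 244 CPM (log2 1.00, adjusted p = 0.00111). The groups did not overlap for these genes, and Myadm, Lgals3, Ahnak and S100a10 kept their calls when any library was left out.

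S100a10 was at 977 and 929.9 CPM in Tg and 565 and 371 CPM in WT (log2 1.03, adjusted p = 0.00356), and its partner Anxa2 at 511 and 441 against 228 and 128 CPM (log2 1.43, adjusted p = 0.0222). S100a4 was at 185 and 169 against 74.5 and 32.3 CPM (log2 1.78, adjusted p = 0.0142). Lmna, which encodes the nuclear lamins A and C, was at 82.5 and 87.5 against 26.9 and 11.2 CPM (log2 2.27, adjusted p = 0.0384). Its call, like those of Vim (log2 0.88) and Lgals1 (log2 1.12), was lost without WT replicate 2 and without either Tg library. The calls of Anxa2 and S100a4 were lost without either Tg library. The other called members were Anxa1 and Anxa6, whose calls were lost when any library was left out, Crip1 and Tagln2, lost like Lmna, and S100a11, lost without WT replicate 2. Lgals1 and Lgals3 also belong to a list of 13 tested secreted repair and suppression genes, of which Gzmb was higher too and Ctsw, a cathepsin, lower. The secreted list had 2 higher members without WT replicate 2 and 1 without either Tg library. The lamin and annexin list had 7 higher members without WT replicate 2 and 5 without either Tg library.

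Adhesion and trafficking genes moved in both directions. Of 21 tested integrins and adhesion genes 5 were higher: Itgae, Itga7, Itga2, Itgam and Cd44 (1 without WT replicate 2, 3 without Tg replicate 1 and 2 without Tg replicate 2). Itgae, the CD103 chain that binds E-cadherin on epithelium, was at 381 and 406 CPM in Tg and 139.9 and 150.3 CPM in WT (log2 1.44, adjusted p = 0.0202). Itga7, a laminin-binding integrin chain known from muscle fibres, was at 55.1 and 37.7 against 11.5 and 7.60 CPM (log2 2.32, adjusted p = 0.00666). Itgb1, the beta chain that pairs with it, was at 308 and 391 against 98.6 and 197 CPM and did not pass (adjusted p = 0.523). Fut7, a fucosyltransferase, was at 36.3 and 32.3 against 8.17 and 10.98 CPM (log2 1.80, adjusted p = 0.00514). Of 21 tested chemokine receptors and related receptors, Ccr4 was higher and Ccr7 and Gpr83 were lower. Ccr4, a receptor for homing to skin and other tissues, was at 266 and 319 against 174 and 126 CPM (log2 0.97, adjusted p = 0.00666). Its call was lost without WT replicate 2 or Tg replicate 2, and that of Itga7 without WT replicate 2 or Tg replicate 1.

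**Figure D3:**
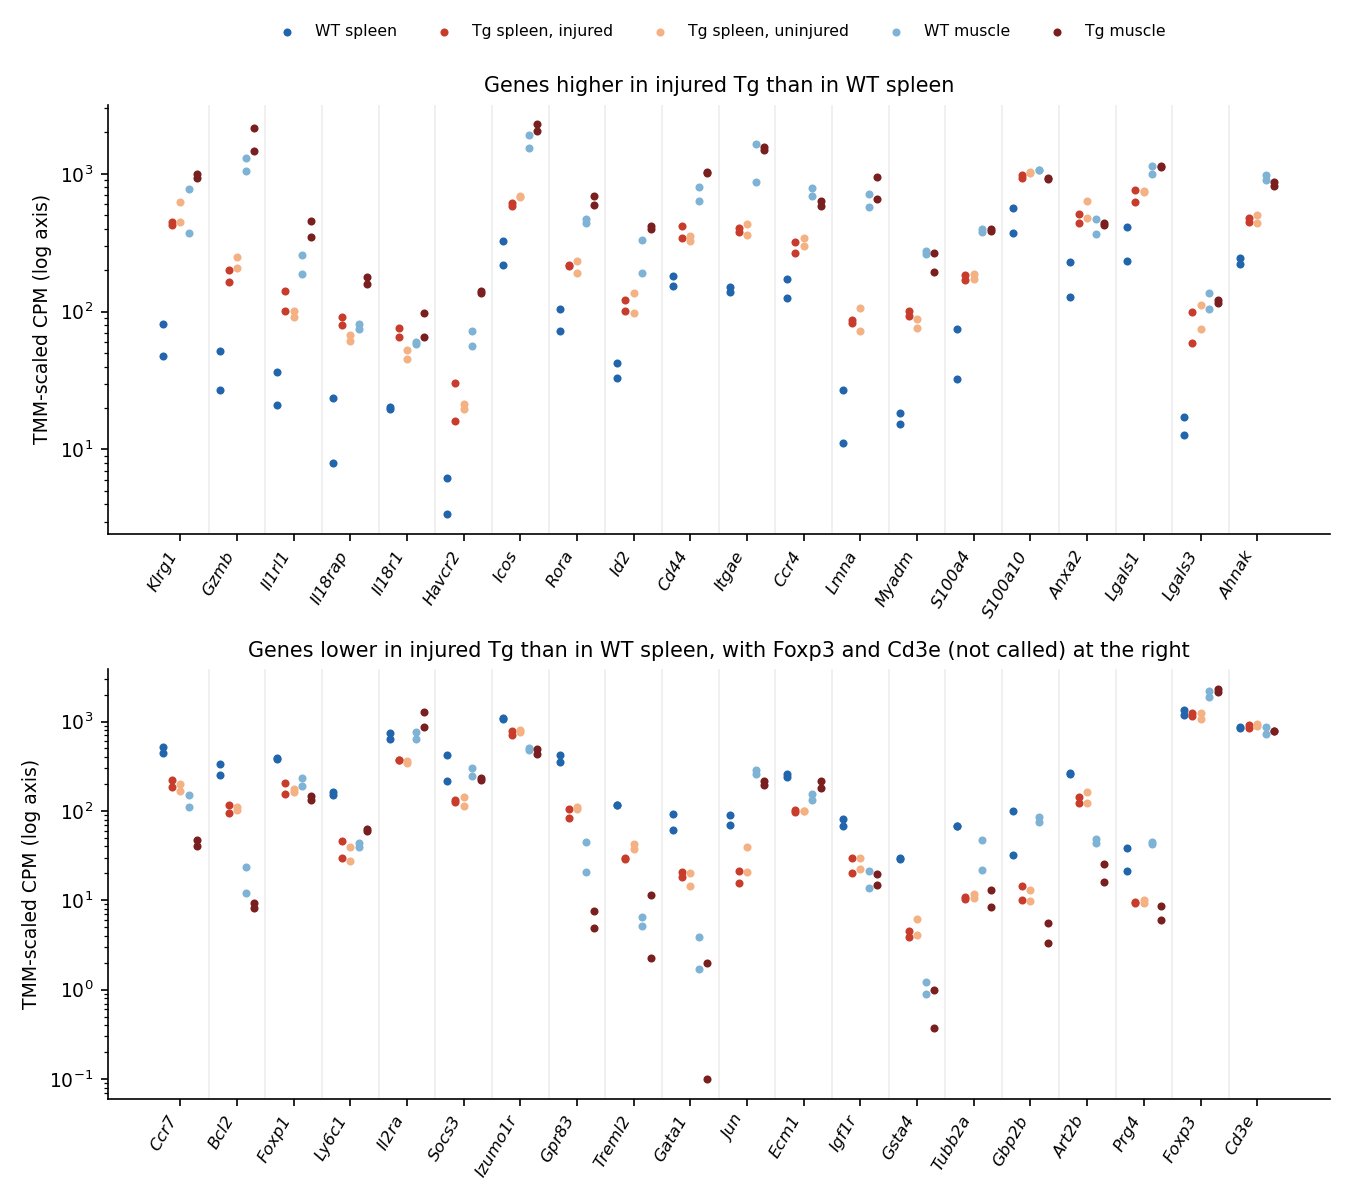
TMM-scaled CPM on a log axis for 20 genes higher (top) and 18 genes lower (bottom) in injured Tg than in WT spleen, with Foxp3 and Cd3e, which did not pass the test. Each point is 1 library of the 5 Treg groups, and values under 0.1 are drawn at 0.1. The injured Tg points lie apart from the WT spleen points for all genes shown but Foxp3 and Cd3e, for example Klrg1 at 429 and 445 against 48.1 and 81.9 CPM.

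Some genes of resting, circulating Tregs were lower. Of 22 tested genes for resting state and homing to lymphoid organs 4 were lower and none higher, 3 had a positive log2 fold change and the median was -0.59. Ccr7, the receptor for lymph node chemokines, was at 187 and 223 CPM in Tg and 446 and 516 CPM in WT (log2 -1.23, SE 0.17, adjusted p = 0.00185). Foxp1, a transcription factor of quiescent T cells, was at 155 and 205 against 383 and 390.5 CPM (log2 -1.10, adjusted p = 0.0024), and Bcl2, an anti-death protein, at 94.5 and 116 against 249 and 337 CPM (log2 -1.48, adjusted p = 0.00669). Ly6c1, a surface protein of the Ly6 family, was at 29.5 and 45.5 against 164 and 152 CPM (log2 -2.07, SE 0.24, adjusted p = 0.000644). The list had 2 lower members without Tg replicate 1 and 3 without WT replicate 2 or Tg replicate 2. The calls of Ccr7 and Ly6c1 held when any library was left out. That of Foxp1 was lost without Tg replicate 1, and that of Bcl2 without WT replicate 2 or either Tg library.

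Il2ra, the high-affinity IL-2 receptor chain CD25 that sustains Tregs, was lower at 368 and 370.3 CPM in Tg against 637 and 753 CPM in WT (log2 -0.91, SE 0.17, adjusted p = 0.0114). Of 16 tested genes of the IL-2 and STAT5 axis 3 were lower (Il2ra, Socs3 and Bcl2) and none higher, and the median was -0.30. Without either Tg library none of these was called, and 1 was without WT replicate 2. Socs3, an inhibitor of cytokine signalling, was at 131 and 125 against 419 and 219 CPM (log2 -1.31, adjusted p = 0.0298). Its call was lost with the replicate block, with only the compared groups in the fit, and without WT replicate 1 or either Tg library. Cish, a target of STAT5, had a log2 fold change of 0.00 and Il2rb, a further IL-2 receptor chain, of -0.33, neither past the test. The call of Il2ra was lost without WT replicate 2 and without either Tg library. Izumo1r, a folate receptor family member of Tregs, was at 780.0 and 704 against 1072 and 1089.5 CPM (log2 -0.54, adjusted p = 0.0431), a call lost when any library was left out. Lrrc32, which encodes the TGF-beta docking protein GARP, was at 228 and 186 against 469 and 478 CPM and did not pass (adjusted p = 0.294).

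Other genes with lower levels in Tg had varied known functions. Gpr83 was at 82.5 and 104 CPM in Tg and 354 and 422 CPM in WT (log2 -2.06, adjusted p = 0.00367). Ecm1, a secreted matrix protein, was at 102 and 96.7 against 259 and 239.6 CPM (log2 -1.33, adjusted p = 0.000762). Tubb2a, a beta tubulin, was at 10.4 and 10.99 against 67.3 and 68.2 CPM (log2 -2.66, adjusted p = 0.00182), and Gsta4, a glutathione transferase, at 3.85 and 4.49 against 29.8 and 28.9 CPM (log2 -2.81, adjusted p = 0.0133). Jun, an AP-1 subunit, was at 21.5 and 15.5 against 89.4 and 69.9 CPM (log2 -2.09, adjusted p = 0.00125), the only called one of 11 tested AP-1 subunits. Treml2 was at 29.0 and 29.4 against 117 and 116 CPM, Gata1 at 18.1 and 20.9 against 61.1 and 91.2 CPM, and Igf1r, a growth factor receptor, at 29.5 and 19.96 against 80.8 and 68.4 CPM. The calls of Treml2, Gsta4, Gata1 and Igf1r were lost when any library was left out, and that of Gpr83 without either Tg library. Ecm1, Tubb2a, Ly6c1 and Jun kept their calls in those fits. Ly6c1, Art2b, Gbp2b and Tgtp2 have close gene copies, which makes the split of their reads uncertain.

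Among 37 tested transcription factors of Tregs, Rora, Id2 and Runx3 were higher and Foxp1 and Gata1 lower. Rora, a nuclear receptor of tissue Tregs, was at 213 and 217 CPM in Tg and 104 and 72.4 CPM in WT (log2 1.30, SE 0.17, adjusted p = 0.00125). Id2, a partner that blocks E proteins, was at 121 and 101 against 42.3 and 33.1 CPM (log2 1.58, adjusted p = 0.011). Runx3 was at 81.1 and 84.6 against 37.0 and 28.5 CPM (log2 1.36, adjusted p = 0.00367). The call of Id2 was lost without WT replicate 2 or either Tg library, and that of Runx3 without WT replicate 2. Short sequence words known for these and related factors were then searched on both strands in the 250 bases before annotated starts, for the called genes found in the RefSeq table (78 of 109 higher and 34 of 45 lower) and for 9207 tested genes. The words were chosen after the called genes were known, and no test was made. The ROR word AGGTCA occurred before 19.2% of the higher and 29.4% of the lower genes against 13.2% of all tested genes. The RUNX word TGTGGTT occurred before 7.69%, 0% and 3.98%, the AP-1 word TGANTCA before 8.97%, 14.7% and 5.14%, the GATA word AGATAA before 11.5%, 8.82% and 7.39%, and the forkhead word TGTTTAC before 2.56%, 2.94% and 2.68%. These shares rest on few genes: the lower genes with an AP-1 word numbered 5.

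A promoter from each of 2 higher genes is printed as an example, picked for the words it holds. Gzmb holds an AP-1 and a RUNX word and Il1rl1 an AGGTCA, a forkhead and a GATA word, all in capitals and found on either strand. Not printed are the first Il1rl1 start and that of Jun, with a GATA word only, and those of Il18rap and Gpr83, with none of the words. The sequences are from RefSeq on GRCm38.p6; the window of Gzmb is chr14:56262335-56262584 on the minus strand, and that of the second Il1rl1 start chr1:40439379-40439628 on the plus strand.
Gzmb: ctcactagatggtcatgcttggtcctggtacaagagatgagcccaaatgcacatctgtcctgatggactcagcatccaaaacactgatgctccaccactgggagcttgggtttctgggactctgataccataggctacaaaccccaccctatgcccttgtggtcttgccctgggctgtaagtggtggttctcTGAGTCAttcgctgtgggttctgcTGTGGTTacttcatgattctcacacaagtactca
Il1rl1: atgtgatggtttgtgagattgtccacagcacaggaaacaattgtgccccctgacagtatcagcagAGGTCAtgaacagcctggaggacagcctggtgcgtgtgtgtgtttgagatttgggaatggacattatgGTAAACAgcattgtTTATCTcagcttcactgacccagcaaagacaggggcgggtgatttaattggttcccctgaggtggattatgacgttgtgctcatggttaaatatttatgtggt

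Cell cycle genes did not pass: none of 40 was called, with 33 positive values and a median log2 fold change of 0.44. These values rested on WT replicate 2: without it 20 were positive and the median was 0.01, and without WT replicate 1 the median was 1.34 and 4 were called. The list summed to 3833 and 3560 CPM in Tg and to 3870 and 2614 CPM in WT, so the groups overlapped. Mki67, a marker of dividing cells, was at 106 and 76.7 CPM in Tg and 47.1 and 27.4 CPM in WT (adjusted p = 0.138). Of 42 tested interferon response genes 1 was called, Gbp2b, which was lower, and the median was -0.23. Positive values numbered 11. The values of 21 did not overlap between genotypes in the lower direction and of 2 in the higher, where 21.3% and 21.8% of all genes do so. Tgtp2 and Ifi47, outside this list, were also called lower (log2 -1.20 and -0.92). Of 27 tested ribosomal protein genes Rps24 was called lower, and the values of 23 did not overlap between genotypes in the lower direction, where 21.3% of all genes do so, with a median of -0.39 and no positive value. The 11 tested mitochondrially encoded genes had a median of -0.32 and none was called. In TCR-induced genes 1 of 25 was called (Icos), and the median was 0.16.

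Markers of other cell types were summed per library. The macrophage and monocyte list reached 1037 and 1204 CPM in Tg and 686 and 657 CPM in WT. Of its 23 tested members Itgam and Axl were called higher. Ccr2, named above among the effector genes, is also a member and adds to these sums, at 302 and 493 against 152 and 80.6 CPM. Lyz2, a further member, had overlapping values, at 15.4 and 1.79 against 51.9 and 3.80 CPM. Of the 23, 19 were positive. The values of 17 did not overlap in the higher direction and of 1 in the lower, where 21.8% and 21.3% of all genes do so. In uninjured Tg against the same WT libraries the macrophage, effector, and lamin and annexin lists had medians of 0.52, 1.07 and 0.97. In injured Tg the median log2 fold change of the macrophage list was 1.42, above those of the effector list (0.86) and of the lamin and annexin list (0.94). The median was 1.16 without WT replicate 1 and 2.26 without WT replicate 2, and no member was called without Tg replicate 2. The dendritic cell list summed to 409.7 and 325 CPM in Tg and 162 and 255 CPM in WT, with 7 of 8 positive, a median of 1.02 and none called. Csf1r, a defining macrophage receptor, was at 27.9 and 45.8 CPM in Tg and 4.33 and 20.5 CPM in WT, and Itgam, which NK cells and myeloid cells also use, at 21.8 and 35.2 against 3.37 and 4.43 CPM. Whether such cells take part in the effector, lamin and annexin, Itgam and Lgals3 differences was not tested. The plasma cell list was at 313 and 298 CPM in Tg, at 279.8 CPM in WT replicate 1 and at 5048 CPM in WT replicate 2, with Igkc at 1771 CPM in the last and 14.9 CPM in WT replicate 1. Of 11 tested NK and innate lymphoid genes 3 were higher (Klrg1, Il1rl1 and Il18rap), all of which the effector Treg and IL-33 groups also hold. Of the 11, 9 were positive, and the median log2 fold change was 2.01, above that of the macrophage list. The values of 6 did not overlap in the higher direction and of 2 in the lower. The median was 0.47 in uninjured Tg and, in injured Tg without replicate 1, 0.26 over 15 tested members. The defining NK gene Ncr1 was at 0 CPM in all 4 libraries. Whether NK or innate lymphoid cells take part in these differences was not tested. In bulk samples fewer cells of a type and less RNA per cell cannot be told apart.

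**Figure D4:**
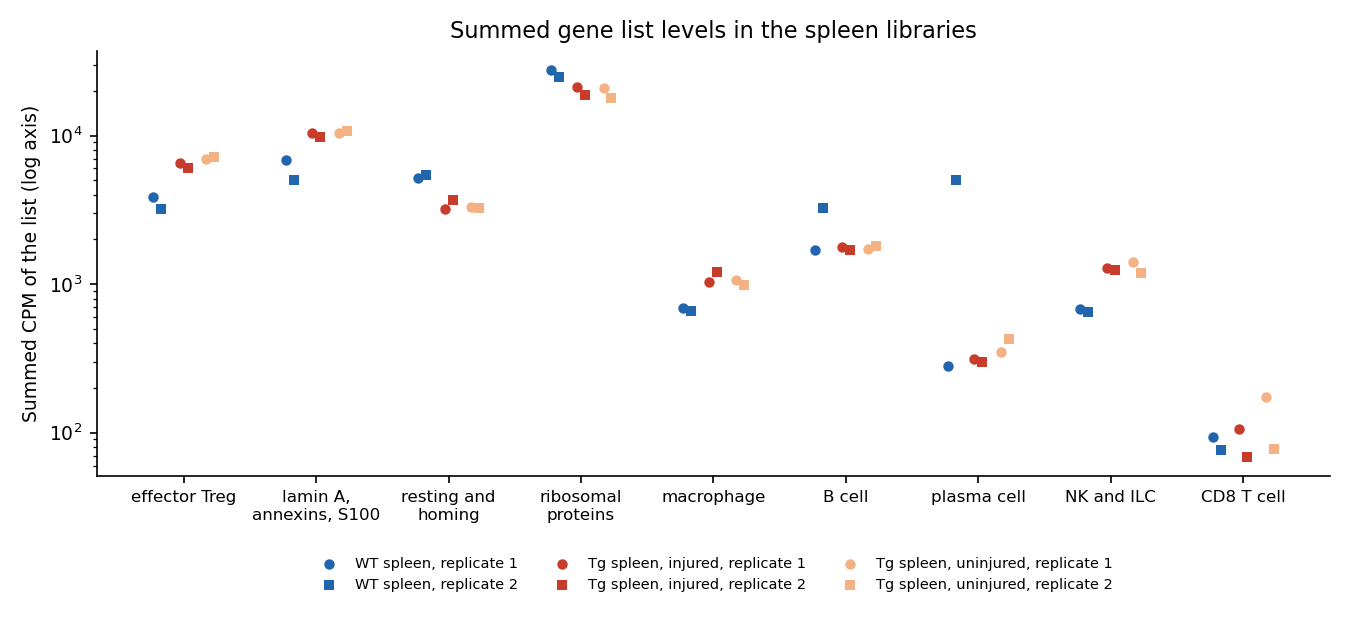
Summed TMM-scaled CPM of 9 gene lists in the 6 spleen libraries, on a log axis; circles are replicate 1 and squares replicate 2. Effector and lamin-annexin sums lie higher and resting and ribosomal sums lower in both Tg groups than in WT, and the plasma cell sum stands apart in WT replicate 2.

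The uninjured Tg libraries share the WT spleen libraries as their reference with the injured ones, so the 2 comparisons are not independent, and values are set side by side. Klrg1 was at 627 and 445 CPM in uninjured Tg, Il1rl1 at 101 and 91.0, Myadm at 88.4 and 76.2, Ccr7 at 199.9 and 166, and Il2ra at 359 and 346. Against the same WT libraries 247 genes passed in uninjured Tg (1.87%). The median of the effector list was 1.07 and that of the resting list -0.71. Itga7 was at 29.7 and 29.2 CPM in uninjured Tg and Jun at 39.6 and 20.5 CPM; no test of injured against uninjured was made here.

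The same genotypes were compared in muscle Tregs, with libraries that share none with the spleen comparison. In muscle 42 genes passed (0.318%), 26 outside the receptor genes (0.199%). Of the 154 non-receptor genes called in spleen, 111 (72.1%) had the same sign in muscle, against 52.2% of the uncalled genes, and 76 of 109 higher and 35 of 45 lower genes did so. The median log2 fold change in muscle was 0.18 for the higher genes and -0.33 for the lower genes. Called in both tissues were 9 non-receptor genes, which is 5.84% of the spleen list and 34.6% of the muscle list, all in the same direction, and 15 receptor genes. Of the 9, Nckap5, Ttn and Nav2 were higher and Gbp2b, Gpr83, Ccr7, Art2b, Prg4 and Gm14085 lower. In spleen only the calls of Ttn, Ccr7 and Gm14085 among them held when any library was left out. Ttn, which encodes the giant muscle protein titin, was at 232 and 188 CPM in Tg spleen and 63.9 and 70.5 CPM in WT spleen, and at 164 and 125 against 33.4 and 26.4 CPM in muscle Tregs.

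In muscle the levels of some of these genes lay above those of spleen in both genotypes. Gzmb was at 1467 and 2136 CPM in Tg muscle and 1043 and 1306 in WT muscle, and Lmna at 954 and 655 against 717 and 578 CPM. Whether the genotype difference itself differed between the tissues was tested by the interaction, and 18 genes passed (0.136%), 16 outside the receptor genes. Myadm had a log2 fold change of 2.49 in spleen and -0.23 in muscle, a difference of 2.72 (adjusted p = 0.000548). Lgals3, Ahnak, S100a10, Ccr4, Fam129a and Nhsl2 also had positive differences. Il2ra was lower in Tg spleen (log2 -0.91) and had a log2 fold change of 0.59 in muscle, a difference of -1.499 (adjusted p = 0.0245), and Ecm1 and Ly6c1 also had negative differences. For Klrg1, Gzmb and Il1rl1 the interaction did not pass (adjusted p = 0.371, 0.291 and 0.345), so a difference between tissues was not shown for them.

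**Figure D5:**
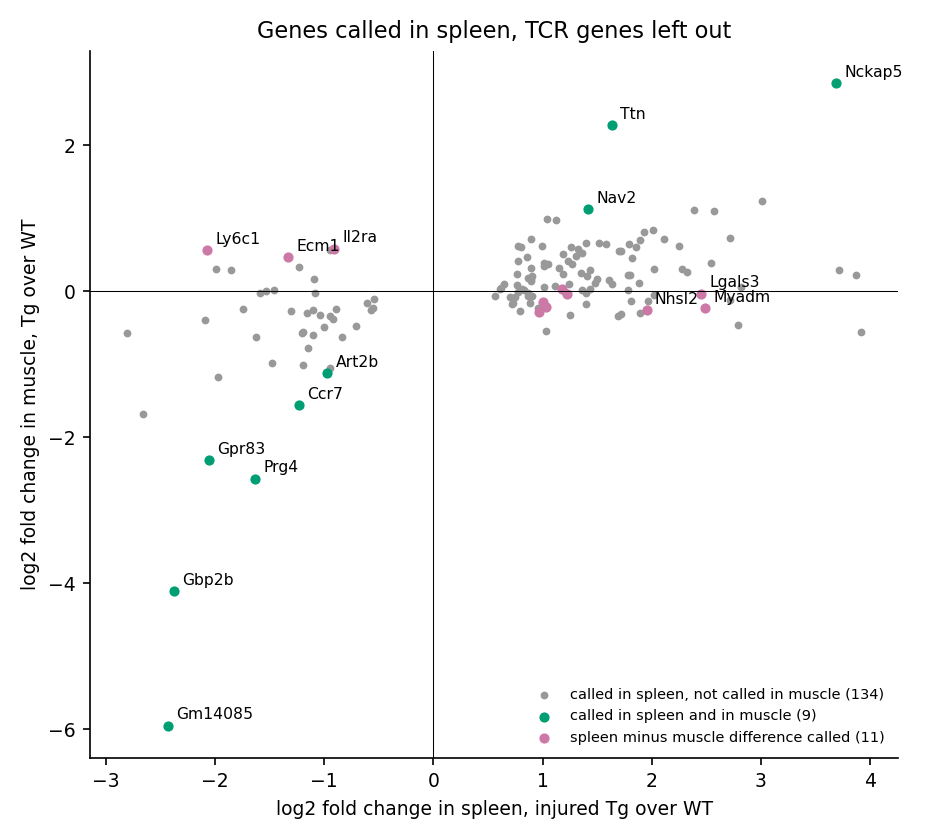
Log2 fold change of Tg over WT in spleen (x axis) and in muscle (y axis) for the 154 non-receptor genes called in spleen. Green genes were called in both tissues (9), pink genes had a called difference between tissues (11), and grey genes neither (134). The higher genes have a median of 0.18 on the muscle axis and the lower genes of -0.33.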

How the data were processed

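RNA-seq libraries were made from sorted Tregs with poly(A) priming and Nextera XT, which marks no strand, and sequenced as paired 25-base reads, per the labels' protocols. Per the submitters' processing notes, STAR 2.5.4, the mm10 build and featureCounts were used, and the table as deposited by the authors holds raw counts per gene. Read sharing between gene copies was not resolved here. The 10 Treg libraries, in 5 groups of 2, were fitted together with edgeR 4.0.16 in R 4.3.3 (filterByExpr, TMM, robust quasi-likelihood test), with p-values adjusted by Benjamini-Hochberg over 13188 genes and a call at an adjusted p under 0.05. No replicate block was used in this fit. The script was tested on simulated data. Some results are not reported here. Named genes were the 20 largest called changes in each direction at a mean log2 CPM of at least 4, called list members with up to 3 abundant uncalled ones, identity genes, TCR genes and genes called in both tissues. Genes named beyond this rule, those in the figures, the sequence words, the printed promoters and the neighbouring pairs were chosen after values were seen. The comparison and all lists were chosen with earlier results of these data known. Alternatives were other scalings, filters, samples in the fit, limma 3.58.1, DESeq2 1.42.0, thinning and leaving out each library. Floors of 3 counts, which cover counting error only, were 0.680 and 0.673 CPM in Tg and 1.44 and 0.633 CPM in WT.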

Additional observations from a re-analysis of the deposited data

Results flagged for a closer look

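The difference of the log2 genotype effect between spleen (injured Tg minus WT) and muscle Tregs passed an adjusted p of 0.05 in the interaction test of edgeR for 18 genes, and values are given for 17 of them. Positive differences, which mean a higher Tg to WT ratio in spleen, were found for Myadm (2.72), Lgals3 (2.48), Nhsl2 (2.21), Cxcr3 (1.64), P2rx7 (1.55), Ccr4 (1.26), S100a10 (1.24), Ahnak (1.15) and Fam129a (1.14). P2rx7, an ATP-gated channel, was at 179 and 169 CPM in Tg spleen against 271 and 314 CPM in WT spleen, and at 19.8 and 17.7 against 97.4 and 87.6 CPM in muscle. Igfbp4 had a fitted difference of 6.45, which depends on the prior count because both Tg muscle libraries had no count of it. Negative differences were found for Ly6c1 (-2.63), Trbv13-2 (-2.12), Gadd45g (-1.96), Ecm1 (-1.79), Trav9-4 (-1.65), Il2ra (-1.499) and Rel (-1.33). Il2ra was at 860.1 and 1261 CPM in Tg muscle and 769 and 645 CPM in WT muscle, so its libraries stood higher in Tg there and lower in Tg in spleen. The count of such genes fell to 3 without Tg spleen replicate 1 and rose to 241 without WT muscle replicate 1.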

How the results depend on the processing

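Of the 91 named called genes of the injured Tg comparison 15 kept their call under every alternative. Each count is of genes past the threshold, in the order injured Tg against WT spleen, uninjured Tg against WT spleen, muscle and the difference between tissues, with main values of 172, 247, 42 and 18. Without a low-count filter they were 372, 456, 195 and 140, with DESeq2 304, 385, 103 and 62, and with a minimum log2 fold of 1 they were 21, 16, 16 and 1. With only the compared groups in the fit they were 338, 480 and 10 for the first 3, and with only the spleen groups 392 and 483 for the first 2. Leaving out each library gave 57 to 160, 50 to 202, 25 to 361 and 3 to 241. With receptor genes removed the muscle count was 14, against 26 calls outside the receptor genes in the main fit. Without robust dispersion, an alternative chosen after seeing the data, the difference between tissues gave 4. The causes were not tested. The other scalings, the stricter filter, limma-voom and thinning stayed within 1.5 times of each main count. Similar counts can hold other genes: limma-voom shared 120 of the 172, 151 of the 247, 28 of the 42 and 12 of the 18 calls. With the replicate block the counts were 177, 262, 40 and 14. The numbers gave no pairing of the samples, with a correlation of 0.060 between the deviations of Tg injured and WT spleen libraries. The block ended the calls of Chchd10, Socs3, Gata1 and Gbp2b among the named genes. Of the uncalled named genes 39 changed sign under some alternative. At 2 libraries a group and 5 residual degrees of freedom, differences smaller than a log2 fold of 0.54 were not called.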
